A study of Homo sapiens with 15 samples.

Results

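SOX transcription factors were followed through 10 genes, SOX2, SOX4, SOX7, SOX8, SOX9, SOX10, SOX11, SOX12, SOX13 and SOX15, taken by gene symbol from a fixed list. All 10 symbols were found among the 33158 genes of the expression table, whose values are FPKM, fragments scaled to transcript length in kilobases and to the number of mapped fragments. The table covers 15 poly(A)-selected RNA libraries from 3 triple negative breast cancer cell lines, with 3 libraries in each of 5 groups. SUM149PT and HCC1937 cells were sorted into cancer stem cells (CSC), which carry CD44 and little or no CD24 at the surface, and the remaining cells of the gate (non-CSC). SUM159PT cells were left unsorted and were handled by the study as CSC. SUM149PT and SUM159PT were grown with insulin and hydrocortisone and HCC1937 in RPMI, so line and medium cannot be told apart where HCC1937 is set against another line, nor line and sorting where SUM159PT is. The labels do not say whether the 3 libraries of a group are separate cultures, and every p-value below measures the spread between libraries only.

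SOX proteins bind the minor groove of DNA through a shared HMG box and bend it, usually together with a partner transcription factor. Vertebrate SOX genes fall into groups by sequence: SOX2 in group B1, SOX4, SOX11 and SOX12 in group C, SOX13 in group D, SOX8, SOX9 and SOX10 in group E, SOX7 in group F and SOX15 in group G. In the mammary gland SOX9 and SOX10 are known as factors of progenitor states, SOX4 is known as a target of TGF-beta signalling that takes part in epithelial-mesenchymal transition, and SOX2 is a core factor of pluripotent cells.

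Of the RNA of the 2 sort markers, CD24 separated the fractions and CD44 differed little. CD24 stood at 7.74 ± 0.198 FPKM in SUM149PT CSC and 139 ± 6.53 FPKM in SUM149PT non-CSC, and at 23.3 ± 0.747 and 150.04 ± 14.3 FPKM in the HCC1937 fractions (SD, n = 3 each). CD44 stood at 84.4 ± 2.08 and 64.5 ± 2.86 FPKM in SUM149PT CSC and non-CSC, and at 106 ± 6.33 and 97.8 ± 3.98 FPKM in HCC1937. The CD44 log2 difference was 0.39 in SUM149PT (adjusted p 0.00168), under the log2 limit of 1 used below, and 0.12 in HCC1937 (adjusted p 0.31). In SUM159PT, CD44 stood at 28.8 ± 0.542 FPKM and CD24 at 0.729 ± 0.0410 FPKM. The SUM159PT libraries also differ from the rest in scale: their FPKM values sum to between 634746 and 652082, against 291276 to 366532 in the sorted libraries, and 8534 to 8670 of their genes exceed 1 FPKM, against 11249 to 11997. Log2 values of replicate libraries correlated across genes with Pearson r between 0.987 and 0.993. How many reads stand behind each library cannot be worked out from the table, which holds no counts.

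Of the 10 genes, 6 reached a group mean of at least 1 FPKM: SOX4, SOX7, SOX9, SOX12, SOX13 and SOX15. The other 4 were low or listed at 0. SOX10 was listed at 0 in all 15 libraries, SOX11 had a value above 0 in 1 library (0.0103 FPKM, SUM149PT CSC replicate 1), SOX2 in 4 libraries with a highest value of 0.0692 FPKM, and SOX8 in 6 libraries with a highest value of 0.474 FPKM. RPS18, a ribosomal protein gene that all cells use, is also listed at 0 in 8 of the 15 libraries. A listed 0 on its own therefore cannot be read as absence here. Whether the 0 values of the SOX genes arise in the same way as those of RPS18 was not tested. SOX10 lies inside POLR2F, which is encoded on the opposite strand and had group means between 2.69 and 15.5 FPKM.

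**Figure D1:**
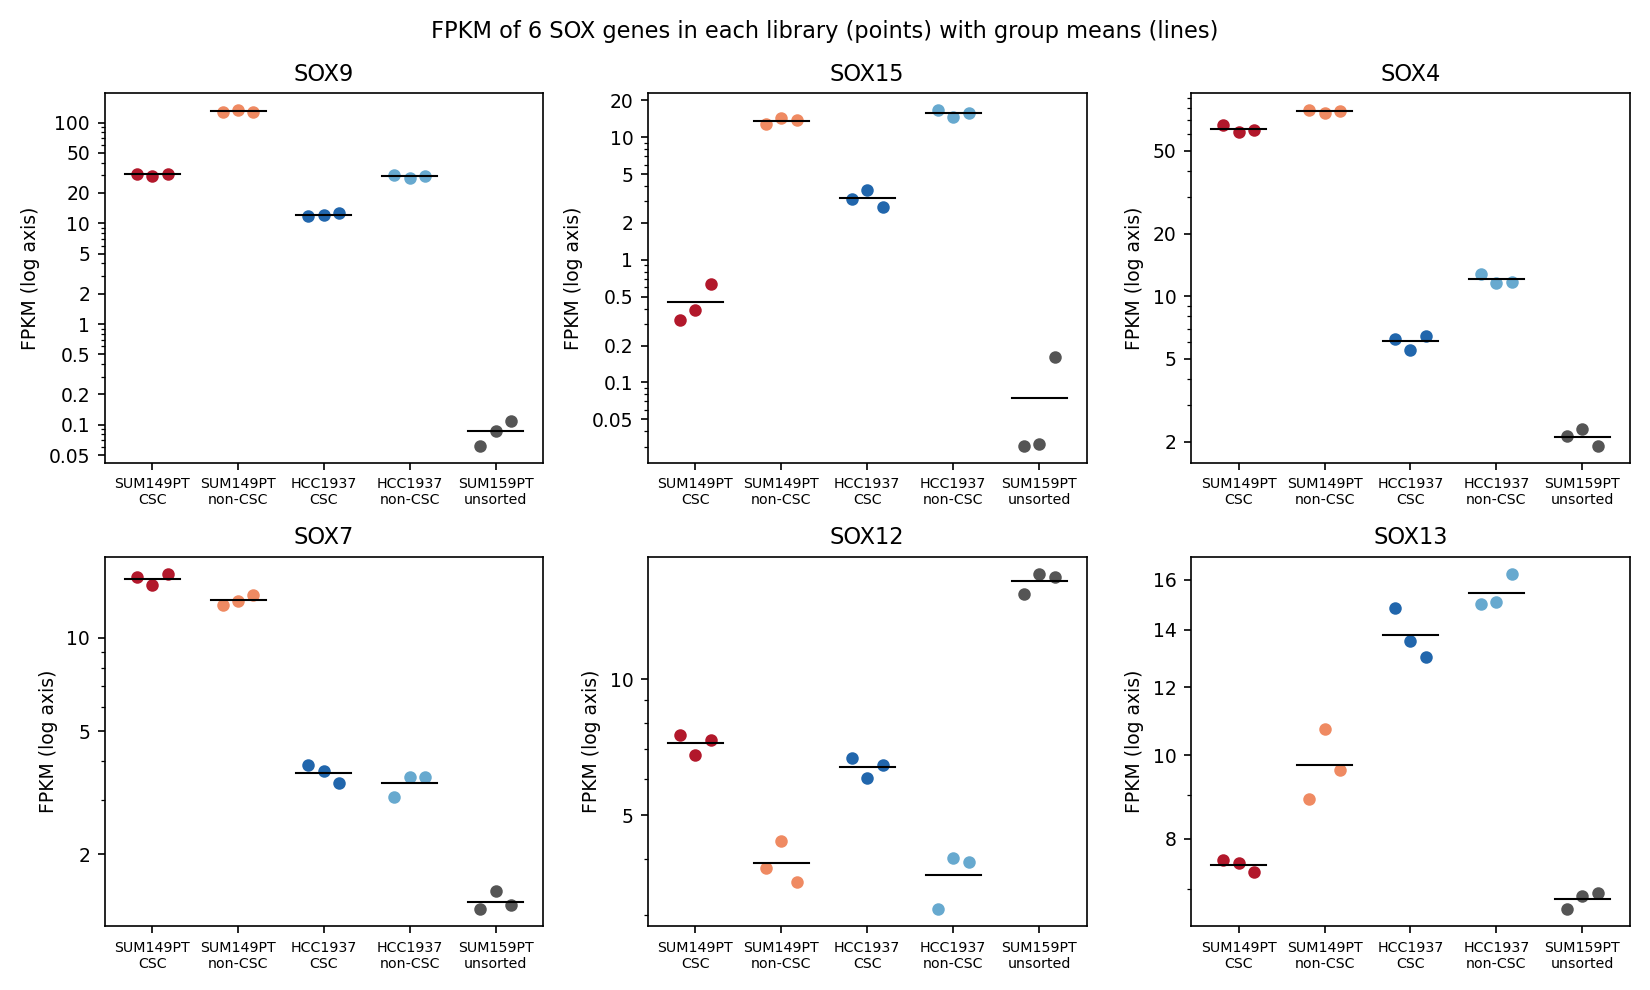
FPKM (log axis) of the 6 SOX genes that reach a group mean of 1 FPKM, in each of the 15 libraries (points) with the group mean (line), by line and sorted fraction. SOX9 and SOX15 are lower in CSC than in non-CSC of both sorted lines and lowest in SUM159PT, where SOX12 is at its highest (16.5 FPKM).

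The 10 genes together summed to 125 ± 3.80 FPKM in SUM149PT CSC and 247 ± 3.66 FPKM in SUM149PT non-CSC (SD, n = 3). In HCC1937 the sum was 45.6 ± 1.27 FPKM in CSC and 80.1 ± 2.23 FPKM in non-CSC, and in SUM159PT it was 27.0 ± 1.21 FPKM. The leading gene changed from group to group. SOX4 held 50.9 ± 0.801% of the sum in SUM149PT CSC, while SOX9 held 52.3 ± 0.600% in SUM149PT non-CSC and 36.8 ± 0.587% in HCC1937 non-CSC. SOX13 held the largest share in HCC1937 CSC, at 30.3 ± 1.21%, and SOX12 in SUM159PT, at 61.1 ± 0.709%. FPKM is a value per length, so these shares compare transcripts and not bases sequenced.

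**Figure D2:**
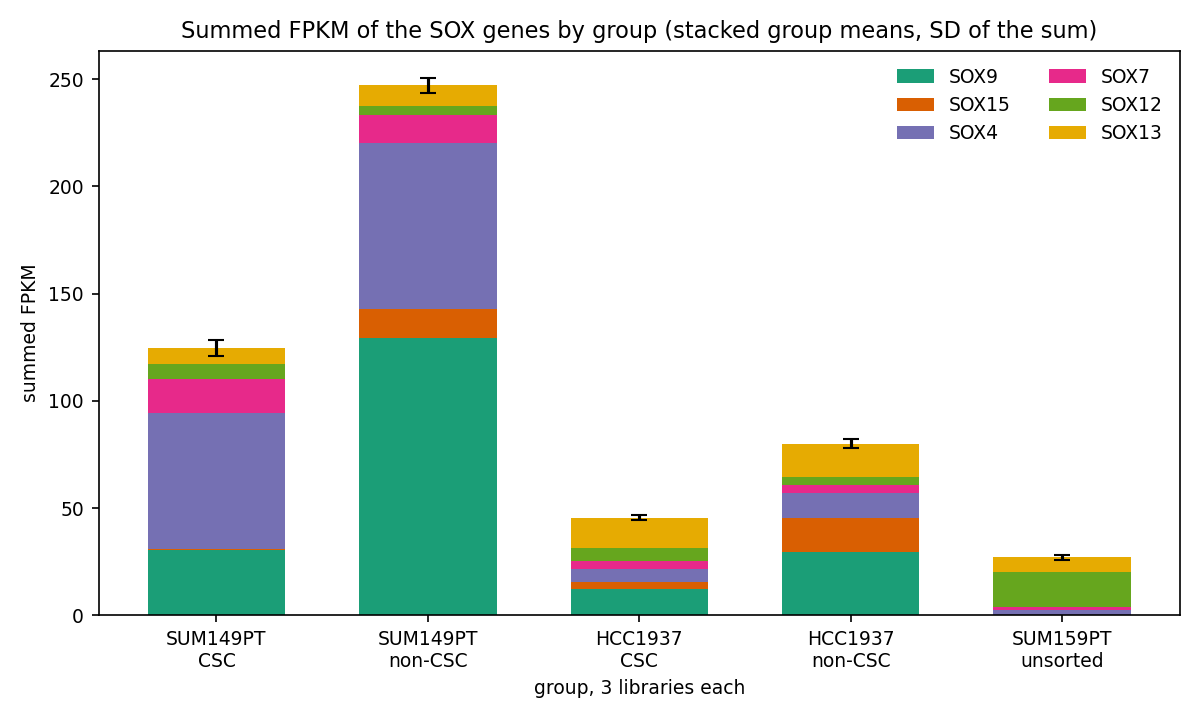
Summed FPKM of the SOX genes in the 5 groups, stacked from the group means of the 6 expressed genes; the bar is the SD of the sum of all 10 genes over 3 libraries. SUM149PT non-CSC has the highest sum (247 FPKM), most of it SOX9, and SUM159PT the lowest (27.0 FPKM), most of it SOX12.

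Group E is represented by SOX9, a factor of cartilage and of many epithelial progenitors, encoded by 3 exons on the plus strand of chromosome 17 (chr17:72121020-72126420, GRCh38, GENCODE release 29). In SUM149PT the 3 CSC libraries gave SOX9 at 30.9, 29.6 and 31.2 FPKM and the 3 non-CSC libraries at 129, 133 and 126 FPKM. In HCC1937 the CSC libraries gave 11.9, 12.1 and 12.5 FPKM and the non-CSC libraries 30.5, 28.2 and 29.8 FPKM. In SUM159PT it was at 0.0618, 0.0875 and 0.109 FPKM. All non-CSC libraries of a line lie above all CSC libraries of that line, and SUM149PT CSC and HCC1937 non-CSC overlap, so the order from high to low is SUM149PT non-CSC, then these 2 groups without separation, then HCC1937 CSC, then SUM159PT.

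The ratio of the SOX9 group means was 4.23 in SUM149PT and 2.42 in HCC1937, non-CSC over CSC. On the log2(FPKM + 0.1) scale the CSC minus non-CSC difference was -2.08 (SE 0.0546, adjusted p 2.94e-06) in SUM149PT and -1.27 (SE 0.0666, adjusted p 0.000239) in HCC1937, by limma's moderated test over all genes. The difference between these 2 effects was itself tested with the interaction term: it was -0.81 (SE 0.0759, adjusted p 9.78e-06), a larger fall in SUM149PT that lies under the log2 limit of 1. Across 16 alternatives in each line the SOX9 difference stayed between -2.09 and -2.02 in SUM149PT and between -1.30 and -1.15 in HCC1937. In bulk RNA, a smaller share of cells that express SOX9 and less SOX9 RNA in each cell cannot be told apart.

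SOX9-AS1, a noncoding RNA gene that overlaps SOX9 on the opposite strand, showed the same order of fractions. Its values were 0.218, 0.142 and 0.105 FPKM in SUM149PT CSC and 1.54, 1.54 and 1.40 FPKM in SUM149PT non-CSC. In HCC1937 they were 0.134, 0.169 and 0.0696 FPKM in CSC and 0.449, 0.395 and 0.422 FPKM in non-CSC. The groups do not overlap in either line, and the log2 differences were -2.67 (adjusted p 3.93e-05) and -1.24 (adjusted p 0.00542), which were -1.11 and -0.34 with a pseudocount of 1, where the HCC1937 call was lost. Whether the counting used strand is not given in the sources used here, so reads of SOX9 and SOX9-AS1 cannot be told apart.

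Collagen and matrix genes that SOX9 controls in cartilage were a list of 10, of which 4 passed the filter on low values in SUM149PT and 3 in HCC1937. A gene under a mean of 0.1 FPKM in 1 of the fractions passed through the other alone, which fixes its direction, so such genes are left out of the counts of lists; 2 genes of this list remain in each line. For this list and those below, the shares of all genes called were 12.8% higher and 22.1% lower in SUM149PT CSC, and 2.71% higher and 6.0% lower in HCC1937 CSC. COL9A3 was called lower in SUM149PT CSC, at 0.178 ± 0.0675 against 5.64 ± 0.602 FPKM, and COL9A2, at 0.7501 ± 0.245 against 9.22 ± 1.06 FPKM (SD, n = 3). Both encode chains of type IX collagen. In HCC1937, COL9A2 (0.902 ± 0.377 against 1.90 ± 0.153 FPKM) was called lower, a call lost in 10 of 16 alternatives.

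SOX8, the group E relative of SOX9 and SOX10, had values above 0 in HCC1937 alone. They were 0.427, 0.318 and 0.158 FPKM in CSC and 0.248, 0.474 and 0.218 FPKM in non-CSC, and it was listed at 0 in the other 9 libraries. The HCC1937 fractions overlap, and their log2 difference was -0.05 (SE 0.343, adjusted p 0.93). That sign turned to 0.0417 with TPM rescaling, to 0.0757 with quantile normalization, to 0.24 without HCC1937 CSC replicate 3 and to 0.21 without HCC1937 non-CSC replicate 2.

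For SOX10, listed at 0 throughout, a list of 10 genes that it controls in neural crest, glia and melanocytes was read instead. In SUM149PT, 4 averaged 0.1 FPKM or more in both fractions, 2 were called higher in CSC (12.8% of all genes were) and 1 lower (22.1%). MITF, the master regulator of melanocytes, and EDNRB, the endothelin receptor, were higher, at 2.34 ± 0.0982 against 0.600 ± 0.106 FPKM and 3.41 ± 0.314 against 0.524 ± 0.164 FPKM. ERBB3, a receptor of the ERBB family, was lower, at 0.351 ± 0.0861 against 5.71 ± 0.269 FPKM; MIA, not counted, was at or near 0 in CSC and at 2.18 ± 0.623 FPKM in non-CSC. In HCC1937, ERBB3 alone of 5 was called, at 5.01 ± 0.248 against 11.5 ± 0.516 FPKM. A list named for a factor says nothing of which factor acts on its genes in these cells.

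SOX15, the member of group G, known from muscle progenitors and from its likeness to SOX2 in DNA binding, had the widest difference between fractions. SUM149PT CSC gave 0.321, 0.393 and 0.640 FPKM and SUM149PT non-CSC 12.8, 14.3 and 13.8 FPKM. HCC1937 CSC gave 3.15, 3.70 and 2.72 FPKM and HCC1937 non-CSC 16.6, 14.7 and 15.8 FPKM. In SUM159PT the values were 0.0304, 0.0315 and 0.162 FPKM. The 5 groups do not overlap with their neighbours in the order HCC1937 non-CSC, SUM149PT non-CSC, HCC1937 CSC, SUM149PT CSC and SUM159PT, and 1 SUM159PT library lies well above the other 2.

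Non-CSC exceeded CSC by a ratio of means of 30.2 in SUM149PT and 4.92 in HCC1937. The log2 difference of SOX15 was -4.68 (SE 0.213, adjusted p 1.29e-05) in SUM149PT and -2.27 (SE 0.127, adjusted p 0.000276) in HCC1937. The interaction was -2.41 (SE 0.262, adjusted p 2.72e-05), and it was -1.34 with a pseudocount of 1, where low values weigh less. The non-CSC fractions of both lines sat close together, with a log2 difference of 0.20 between HCC1937 and SUM149PT (SE 0.257, adjusted p 0.49, 95% interval -0.36 to 0.76), which turned to -0.0330 with upper quartile scaling. The CSC fractions did not: HCC1937 CSC was higher than SUM149PT CSC by 2.61 (SE 0.257, adjusted p 1.02e-06), or 1.53 with a pseudocount of 1.

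SOX15 lies on the minus strand of chromosome 17 (chr17:7588178-7590170, GRCh38, GENCODE release 29) and overlaps MPDU1, a gene for the use of dolichol-linked sugars, on the opposite strand. MPDU1 was at 2.56, 3.06 and 2.08 FPKM in SUM149PT CSC and 5.70, 5.34 and 4.94 FPKM in SUM149PT non-CSC. It was at 14.9, 12.7 and 12.6 FPKM in HCC1937 CSC, 11.7, 10.99 and 10.5 FPKM in HCC1937 non-CSC and 14.97, 14.3 and 17.3 FPKM in SUM159PT. MPDU1 was thus lower in CSC of SUM149PT, higher in CSC of HCC1937 and high in SUM159PT, where SOX15 was lowest.

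**Figure D3:**
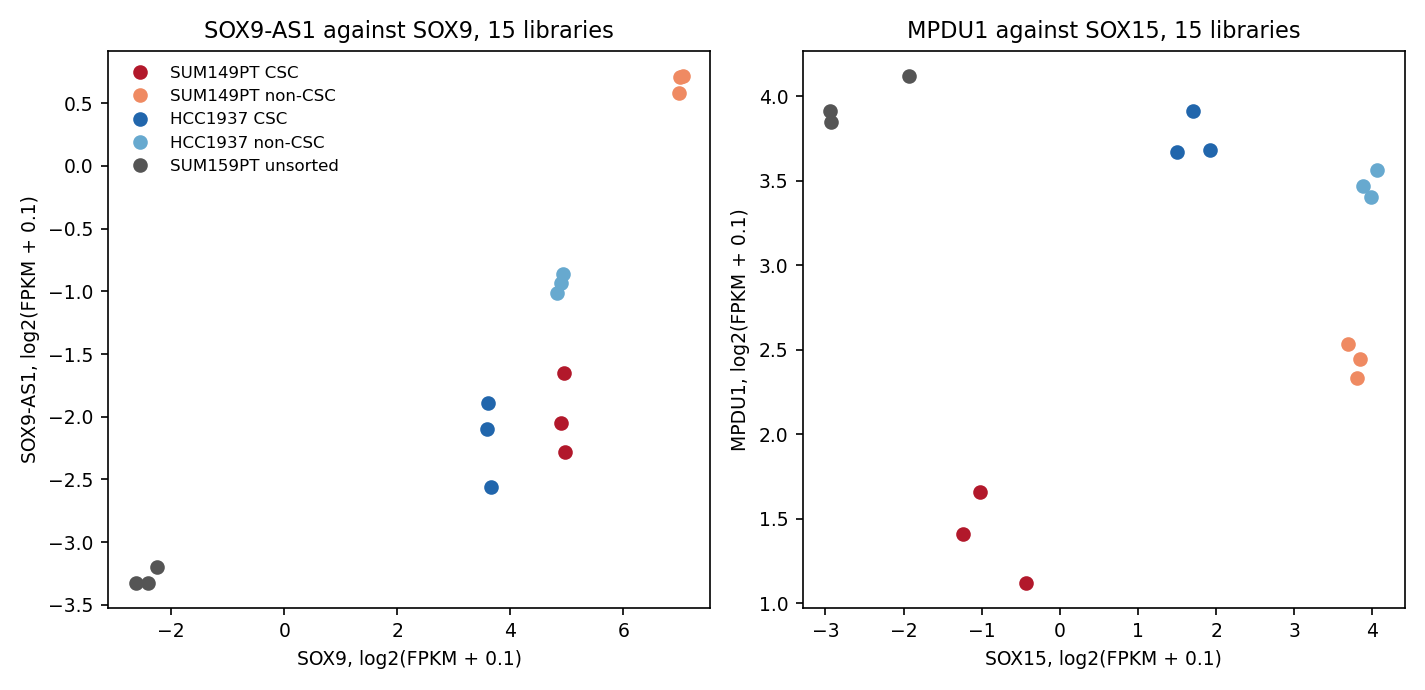
Log2(FPKM + 0.1) of the genes that overlap SOX9 and SOX15 on the opposite strand (y axes) against the SOX gene (x axes), 1 point for each of 15 libraries, coloured by group. SOX9-AS1 is highest where SOX9 is highest (SUM149PT non-CSC), while MPDU1 does not follow SOX15: SUM159PT has the lowest SOX15 and MPDU1 at 14.3 to 17.3 FPKM.

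Group C holds SOX4, SOX11 and SOX12, which act in neural and many epithelial precursors. SOX4 has 1 exon on the plus strand of chromosome 6 (chr6:21592768-21598619, GRCh38, GENCODE release 29). It stood at 66.2, 61.6 and 62.7 FPKM in SUM149PT CSC and at 78.2, 76.1 and 77.8 FPKM in SUM149PT non-CSC. It stood at 6.24, 5.55 and 6.47 FPKM in HCC1937 CSC and at 12.8, 11.6 and 11.8 FPKM in HCC1937 non-CSC. In SUM159PT it stood at 2.13, 2.31 and 1.91 FPKM. As deposited, no 2 of the 5 groups overlap.

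Between fractions the SOX4 log2 difference was -0.28 in SUM149PT (SE 0.0554, adjusted p 0.00451) and -0.98 in HCC1937 (SE 0.0884, adjusted p 0.00114), both under the log2 limit of 1. The SUM149PT difference was -0.16 with an adjusted p of 0.0635 after quantile normalization, and its adjusted p ranged from 0.000653 to 0.0635 over 16 alternatives. The HCC1937 difference passed the limit without HCC1937 CSC replicate 3 (-1.02) and without HCC1937 non-CSC replicate 2 (-1.004). The interaction was 0.69 (SE 0.0991, adjusted p 0.000185), a larger fall of SOX4 in HCC1937, opposite to SOX9 and SOX15. Between lines SOX4 was lower in HCC1937 than in SUM149PT by -3.36 (SE 0.0797, adjusted p 2.11e-12) in CSC and by -2.67 (SE 0.0797, adjusted p 1.90e-11) in non-CSC, ratios of means of 10.4 and 6.42.

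SOX12 ran the other way. It has 1 exon on the plus strand of chromosome 20 (chr20:325595-330224, GRCh38, GENCODE release 29). Its values were 7.53, 6.78 and 7.34 FPKM in SUM149PT CSC and 3.82, 4.39 and 3.54 FPKM in SUM149PT non-CSC. In HCC1937 they were 6.68, 6.03 and 6.45 FPKM in CSC and 3.09, 4.01 and 3.93 FPKM in non-CSC, and in SUM159PT 15.5, 17.2 and 16.9 FPKM. All CSC libraries lie above all non-CSC libraries in each line, SUM159PT lies above every sorted library, and the non-CSC fractions of both lines overlap.

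SOX12 was higher in CSC by 0.87 on the log2 scale in SUM149PT (SE 0.0958, adjusted p 0.000393) and by 0.79 in HCC1937 (SE 0.120, adjusted p 0.00644). Both lie under the log2 limit of 1, which the SUM149PT difference passed after quantile normalization (1.01). The interaction was 0.08 (adjusted p 0.68, 95% interval -0.27 to 0.43), and TPM rescaling took it to -7.94e-05, so no difference between the lines was detected for SOX12. Between lines it differed by -0.17 in CSC (adjusted p 0.15) and by -0.09 in non-CSC (adjusted p 0.44), the latter 0.0249 without HCC1937 non-CSC replicate 1. With upper quartile scaling these were -0.41 (adjusted p 0.00344) and -0.32 (adjusted p 0.0146), and the adjusted p ranged over 16 alternatives from 0.00344 to 0.33 in CSC and from 0.0146 to 0.94 in non-CSC.

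RefSeq promoter sequences of GRCh38.p14 were matched for 4 of the 10 genes. The 250 bases before the RefSeq start are shown for SOX12, the gene that is higher in CSC and in SUM159PT, and for SOX13, described next. Capitals mark every match, on either strand, to 6 motifs: the SOX core ACAAAG and its variant AACAAT, the octamer ATGCAAAT bound by POU factors, which are known SOX partners, the CCAAT box CCAAT, the GC box GGGCGG and the TATA box TATAAA; matches that overlap are counted separately.
SOX12, chr20:325302-325551, plus strand: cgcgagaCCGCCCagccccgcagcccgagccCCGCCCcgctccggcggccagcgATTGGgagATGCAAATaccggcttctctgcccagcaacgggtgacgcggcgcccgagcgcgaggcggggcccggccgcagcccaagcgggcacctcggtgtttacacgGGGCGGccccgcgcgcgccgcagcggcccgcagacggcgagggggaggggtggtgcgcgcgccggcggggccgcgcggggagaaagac
SOX13, chr1:204072865-204073114, plus strand: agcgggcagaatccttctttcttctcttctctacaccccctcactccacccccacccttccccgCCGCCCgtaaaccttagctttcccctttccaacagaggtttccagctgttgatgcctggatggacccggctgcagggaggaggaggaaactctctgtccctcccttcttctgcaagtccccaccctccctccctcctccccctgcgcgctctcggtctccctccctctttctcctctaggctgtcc
The SOX12 window holds 79.2% G and C and the SOX13 window 60.8%, beside a median of 58% over 35116 promoter windows of this length. SOX12 has an octamer that begins at -188 from the start, a CCAAT box in reverse at -196 and 3 GC boxes; SOX13 has 1 GC box, in reverse at -186. Over all windows the octamer occurs in 1.63%, the CCAAT box in 32.0%, the GC box in 42.6%, the SOX core in 13.7%, its variant in 8.98% and the TATA box in 10.7%. Neither window holds the letters of the SOX core, its variant or the TATA box. A match is a description of the letters and not a site of binding.

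Genes known as targets of SOX4 and SOX11 were a list of 7, of which 5 passed the filter in each line. SEMA3C, a secreted guidance factor, was called higher in SUM149PT CSC, at 9.87 ± 0.363 against 2.45 ± 0.0866 FPKM, and the list had no other call in either line. The median log2 difference was 0.33 in SUM149PT and -0.02 in HCC1937. TUBB3, a neuronal tubulin and the most abundant gene of the list, stood at 40.9 ± 3.44 and 56.0 ± 2.13 FPKM in SUM149PT CSC and non-CSC, at 31.4 ± 5.07 and 28.5 ± 0.901 FPKM in HCC1937 and at 86.4 ± 1.82 FPKM in SUM159PT.

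SOX7, of group F, is known from endothelial and cardiac development together with SOX17 and SOX18. It was at 15.7, 14.8 and 16.1 FPKM in SUM149PT CSC and 12.8, 13.2 and 13.7 FPKM in SUM149PT non-CSC. In HCC1937 it was at 3.88, 3.71 and 3.40 FPKM in CSC and 3.06, 3.55 and 3.55 FPKM in non-CSC, and in SUM159PT at 1.33, 1.52 and 1.37 FPKM. As deposited, SUM149PT lies above HCC1937, which lies above SUM159PT, and the HCC1937 fractions overlap; after quantile normalization SUM159PT lies above HCC1937 CSC by 0.26 on the log2 scale.

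Between fractions SOX7 differed by 0.23 in SUM149PT (SE 0.0612, adjusted p 0.0154) and by 0.11 in HCC1937 (SE 0.0932, adjusted p 0.44). The SUM149PT adjusted p was 0.0611 without SUM149PT CSC replicate 3, within a range of 0.00466 to 0.0611 over 16 alternatives. The interaction was 0.12 (adjusted p 0.36, 95% interval -0.12 to 0.36). Against SUM149PT, HCC1937 was lower by -2.06 in CSC (SE 0.0789, adjusted p 1.32e-10) and by -1.94 in non-CSC (SE 0.0789, adjusted p 2.87e-10). SOX7 shares its strand with the overlapping gene PINX1, an inhibitor of telomerase, which had group means of 5.40, 4.30, 2.27, 2.57 and 10.3 FPKM in SUM149PT CSC, SUM149PT non-CSC, HCC1937 CSC, HCC1937 non-CSC and SUM159PT, and reads of the shared stretch could fall to either gene.

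SOX13, of group D, is known from lymphocyte fate and lacks a transactivation domain of its own. It had 7.57, 7.5001 and 7.33 FPKM in SUM149PT CSC and 8.89, 10.7 and 9.63 FPKM in SUM149PT non-CSC. It had 14.8, 13.6 and 13.0 FPKM in HCC1937 CSC, 15.01, 15.1 and 16.3 FPKM in HCC1937 non-CSC and 6.62, 6.86 and 6.92 FPKM in SUM159PT. No neighbours in this order overlap, but the steps are small: the ratio of means of HCC1937 non-CSC to CSC is 1.12 and of SUM149PT CSC to SUM159PT 1.10. The log2 difference between fractions was -0.38 in SUM149PT (SE 0.0822, adjusted p 0.00723) and -0.16 in HCC1937 (SE 0.0796, adjusted p 0.20), with an interaction of -0.21 (adjusted p 0.12, 95% interval -0.46 to 0.03). HCC1937 was higher than SUM149PT by 0.88 in CSC (SE 0.0752, adjusted p 2.73e-07) and by 0.66 in non-CSC (SE 0.0752, adjusted p 4.13e-06), both under the log2 limit of 1.

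**Figure D4:**
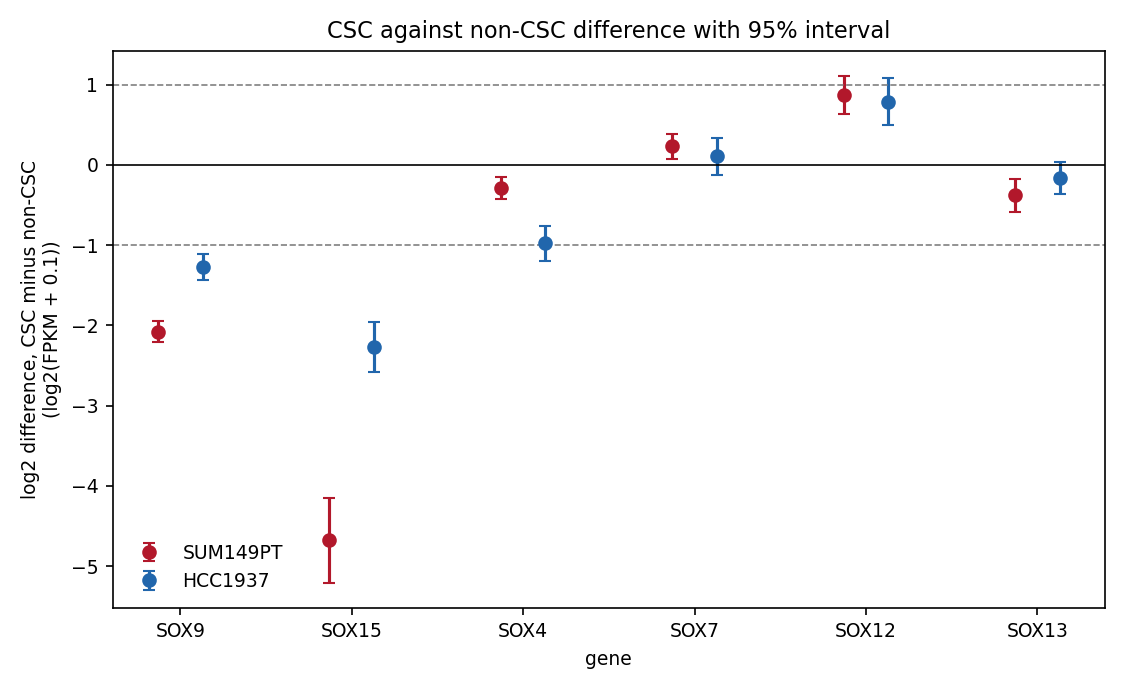
Log2 difference between CSC and non-CSC (y axis, log2(FPKM + 0.1), CSC minus non-CSC) with its 95% interval for the 6 expressed SOX genes in SUM149PT and HCC1937, 3 libraries against 3 in each; dashed lines mark a log2 difference of 1 in size. SOX9 and SOX15 lie below -1 in both lines, SOX12 lies near 0.8 to 0.9, and SOX4 sits lower in HCC1937 (-0.98) than in SUM149PT (-0.28).

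Counted together, 6 of the 10 genes averaged 0.1 FPKM or more across the SUM149PT libraries and were tested there, and 7 did so across the HCC1937 libraries, SOX8 being the addition. A gene is called when limma's adjusted p is at most 0.05 and the log2 difference is at least 1 in size. In SUM149PT 2 of the 6, SOX9 and SOX15, were called, both lower, and 34.9% of all 16037 genes tested were called, 12.8% higher and 22.1% lower. Without the log2 limit all 6 passed, beside 74.8% of all genes. In HCC1937 2 of the 7, SOX9 and SOX15 again, were called, both lower, against 8.71% of all 15582 genes tested, 2.71% higher and 6.0% lower. Without the log2 limit 4 of the 7 passed, beside 25.6% of all genes.

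The study used a stricter false discovery rate, 0.0001, and an enrichment score of 1, which is read here as a log2 difference of 1 in size. In SUM149PT SOX9 and SOX15 met these limits, beside 20.5% of all genes. Their adjusted p passed 0.0001 in 1 of 16 alternatives for SOX9 (up to 0.000374) and in 6 of 16 for SOX15 (up to 0.000424). The replicate block, which treats libraries of the same number as belonging together, is among these for both genes. It left 0 of all genes within the limits, and whether the numbers pair the libraries is not settled. In HCC1937 limma placed 0% of all genes within them, while its unadjusted p reached 0.05 or lower for 5886 genes. That 0 depends on the settings: 384 genes met the limits with a pseudocount of 1, 342 with a minimum of 1 FPKM, 477 with limma's trend and robust prior and 883 in the fit over 15 libraries. For the interaction 1 of 6 genes, SOX15, was called, with the CSC effect lower in SUM149PT, against 30.4% of all genes, 12.2% higher and 18.2% lower. Without the log2 limit 3 of the 6 passed, SOX15, SOX9 and SOX4, beside 61.1% of all genes. SOX8 passed that filter on its HCC1937 values and is listed at 0 in SUM149PT, so it is not counted.

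The members' calls are to be read against how far all genes moved. The median log2 difference over all genes was -0.11 in SUM149PT and 0.10 after quantile normalization, which also moved the share of calls that are higher from 36.5% to 51.2%. In HCC1937 the median was -0.03, and the share of higher calls was 31.1%, 42.2% with TPM rescaling. For the interaction that share was 40.2%, and 50.7% after quantile normalization. Relative to the median of all genes, SOX9 and SOX15 differed by -1.97 and -4.57 in SUM149PT and by -1.24 and -2.24 in HCC1937, and SOX12 by 0.98 and 0.82.

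Epithelial and mesenchymal genes moved between the same fractions. Of an epithelial list, all 10 genes counted in SUM149PT and all 11 in HCC1937 were called lower in CSC, with a median log2 difference of -4.45 and -2.20. CDH1, which encodes E-cadherin, was at 3.32 ± 0.266 against 78.3 ± 4.02 FPKM in SUM149PT and at 16.9 ± 1.26 against 82.8 ± 3.30 FPKM in HCC1937. The list summed to 156 FPKM in SUM149PT CSC, 2395 in SUM149PT non-CSC, 570 in HCC1937 CSC, 1779 in HCC1937 non-CSC and 286 in SUM159PT, led by KRT19 in both SUM149PT fractions, KRT8 in HCC1937 CSC and KRT18 in the other 2 groups, with CLDN3 listed at 0 in SUM159PT. Of 9 mesenchymal genes, 6 were called higher and 2 lower in SUM149PT CSC, and 6 of 8 tested higher in HCC1937 CSC. VIM, the gene of vimentin and the most abundant of them in all groups but SUM149PT non-CSC, was at 2090 ± 90.2 against 244 ± 34.6 FPKM in SUM149PT and at 917 ± 83.5 against 156 ± 33.2 FPKM in HCC1937. SNAI1, a repressor of E-cadherin, was lower in SUM149PT CSC, at 61.9 ± 3.27 against 373 ± 5.33 FPKM. The part of these genes in the SOX differences was not tested.

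Transcription factors that pair with SOX proteins were a list of 15, of which 9 averaged 0.1 FPKM or more in both fractions of SUM149PT and 10 in those of HCC1937. In SUM149PT 3 were called higher in CSC (12.8% of all genes were) and 1 lower (22.1%). POU5F1, the partner of SOX2 in pluripotent cells, was at 101 ± 6.55 FPKM in SUM149PT CSC, 17.3 ± 2.68 FPKM in SUM149PT non-CSC and 7.47 ± 1.05 FPKM in SUM159PT, and was listed at 0 in HCC1937 CSC. SOX2 itself did not exceed 0.0692 FPKM in any library. NANOG, not counted, was at 0.00541 against 0.385 FPKM, TFAP2C, a luminal factor, at 4.54 ± 0.381 against 26.0 ± 0.892 FPKM, and EGR2 at 19.4 ± 0.487 against 3.81 ± 0.251 FPKM. In HCC1937 EGR2 was the list's call, lower at 0.173 ± 0.0737 against 0.571 ± 0.177 FPKM, and it was lost in 7 of 15 alternatives. KLF4, a further factor of self-renewal, led the list in SUM149PT non-CSC (43.0 ± 4.33 FPKM) and in both HCC1937 fractions (42.6 ± 0.561 and 49.6 ± 3.52 FPKM).

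Relatives with the same HMG box that act in Wnt signalling, LEF1, TCF7, TCF7L1 and TCF7L2, were listed with CTNNB1, the gene of beta-catenin, to which several SOX proteins bind. LEF1 was called lower in SUM149PT CSC, at 0.1799 ± 0.0752 against 0.496 ± 0.0361 FPKM, a call lost without SUM149PT CSC replicate 3 (log2 difference -0.89) and under 2 other alternatives. No other gene of the list was called in SUM149PT, and of the 4 tested in HCC1937 none was, by limma. CTNNB1 was the most abundant, at 54.8 ± 0.721 and 63.0 ± 3.10 FPKM in SUM149PT, 51.3 ± 0.823 and 57.1 ± 1.98 FPKM in HCC1937 (CSC and non-CSC) and 8.44 ± 0.497 FPKM in SUM159PT.

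Among 9 further SOX genes, SOX1, SOX3, SOX5, SOX6, SOX14, SOX17, SOX18, SOX21 and SOX30, SOX18 was the one with a group mean of at least 0.5 FPKM. SOX18, a group F factor of vessels and lymphatics, was listed at 0, 0.174 and 0 FPKM in SUM149PT CSC and at 0.514, 0.599 and 0.785 FPKM in SUM149PT non-CSC. In HCC1937 it was at 0.620, 0.520 and 0.661 FPKM in CSC and 0, 0.426 and 0.633 FPKM in non-CSC. The SUM149PT groups do not overlap and the HCC1937 groups do. SOX18 passed the filter in SUM149PT through non-CSC alone, so no call is given, and SOX1, SOX3, SOX14 and SOX17 were listed at 0 in all groups.

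Of 5 noncoding genes next to SOX genes, 4 were in the table. CASC15, a long noncoding RNA gene near SOX4, was called lower in SUM149PT CSC, at 0.527 ± 0.0751 against 1.81 ± 0.254 FPKM (log2 difference -1.61, adjusted p 0.000123; -0.88 with a pseudocount of 1). It was listed at 0 in HCC1937 CSC and had means of 0.0175 FPKM in HCC1937 non-CSC and 0.00668 FPKM in SUM159PT, so it, like SOX4, was highest in SUM149PT non-CSC. SOX2-OT, in which SOX2 lies, stayed at or below a mean of 0.00899 FPKM in every group.

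SOX8 is left out of the counts between lines, because it is listed at 0 in SUM149PT and SUM159PT and passed the filter through HCC1937 alone, which fixes its direction. Between HCC1937 CSC and SUM149PT CSC 4 of the other 6 genes were called, where 43.0% of all 16373 genes were called. SOX15 was higher in HCC1937 (25.6% of all genes were), and SOX4, SOX7 and SOX9 were lower (17.3% were). SOX9 differed by -1.32 (SE 0.0820, adjusted p 1.22e-08). For the non-CSC fractions 3 of the 6 were called, beside 42.1% of all genes: SOX4, SOX7 and SOX9 were lower (20.3%) and 0 were higher (21.8%). SOX9 differed there by -2.13 (SE 0.0820, adjusted p 1.75e-10). Upper quartile scaling moved the share of calls that are higher from 59.7% to 49.5% in CSC and from 51.8% to 41.3% in non-CSC, and the all-gene median from 0.22 to 0.00063 and from 0.09 to -0.12. SOX4, SOX7 and SOX9 stayed called lower in HCC1937 under each scaling.

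Unsorted SUM159PT had little SOX9, SOX15, SOX4 and SOX7 and the most SOX12. SOX9 and SOX15 averaged 0.0862 and 0.0747 FPKM in SUM159PT, so they passed the filter through the sorted lines. That fixes their direction, and they are not counted here. Against SUM149PT CSC, SOX12 was called higher (19.1% of all genes were) and SOX4 and SOX7 lower (42.3%), beside 61.4% of all genes called. SOX13 was not called there. Against HCC1937 CSC, SOX12 was called higher (17.6%) and SOX4, SOX7 and SOX13 lower (46.5%), beside 64.1% of all genes called. These shares show that a call is common in both comparisons. The 2 comparisons share the SUM159PT libraries and are not independent of each other.

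The SOX9 log2 difference was -7.37 against SUM149PT CSC (SE 0.0820, adjusted p 6.99e-15) and -6.05 against HCC1937 CSC (SE 0.0820, adjusted p 9.87e-15), ratios of means of 354 and 141. With a pseudocount of 1 they were -4.86 and -3.60, since SUM159PT values near 0.1 FPKM are then swamped. SOX4 differed by -4.85 (SE 0.0797, adjusted p 4.48e-14) and -1.48 (SE 0.0797, adjusted p 1.17e-09), SOX7 by -3.38 and -1.32, and SOX15 by -1.70 and -4.31. With a pseudocount of 1 the SOX15 differences were -0.43, which lost its call, and -1.96, and the SOX7 difference from HCC1937 CSC (-0.95) also lost its call. SOX12 was higher by 1.18 (SE 0.106, adjusted p 2.43e-07) and 1.36 (SE 0.106, adjusted p 5.63e-08). SOX13 differed by -0.13 (adjusted p 0.12) from SUM149PT CSC and by -1.01 (adjusted p 3.51e-08) from HCC1937 CSC, a call that 5 alternatives end: -0.92 with a pseudocount of 1, -0.47 with upper quartile scaling, -0.28 after quantile normalization, -0.96 without HCC1937 CSC replicate 1 and -0.99 without SUM159PT replicate 1.

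How SUM159PT is scaled matters for the smaller of these differences. The median log2 difference over all genes was -0.60 against SUM149PT CSC, -1.63 with TPM rescaling and 0.06 after quantile normalization, and -0.85, -1.83 and 0.02 against HCC1937 CSC. The share of calls that are higher moved from 31.2% to 11.2% and 50.2% against SUM149PT CSC, and from 27.5% to 12.9% and 49.0% against HCC1937 CSC, with upper quartile scaling at 37.4% and 38.5%. Relative to the median of all genes as deposited, SOX9 was lower by -6.77 and -5.20, SOX4 by -4.24 and -0.63, SOX7 by -2.78 and -0.47 and SOX15 by -1.09 and -3.46, while SOX12 was higher by 1.79 and 2.20.

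SOX9, with its direction fixed by the filter, kept its call against both CSC groups under each scaling. SOX12 lost its calls with TPM rescaling, at 0.10 (adjusted p 0.47) against SUM149PT CSC and 0.36 (adjusted p 0.0188) against HCC1937 CSC, and kept them under the other scalings. Against HCC1937 CSC, SOX7 turned to 0.26 and SOX4 came to -0.10 (adjusted p 0.26) after quantile normalization, and with upper quartile scaling SOX4 (-0.95) and SOX7 (-0.80) lost their calls. Against SUM149PT CSC, SOX13 turned to 0.17 with upper quartile scaling and 0.52 after quantile normalization, and was called at -1.22 with TPM rescaling, and SOX15 lost its call after quantile normalization (-0.71).

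**Figure D5:**
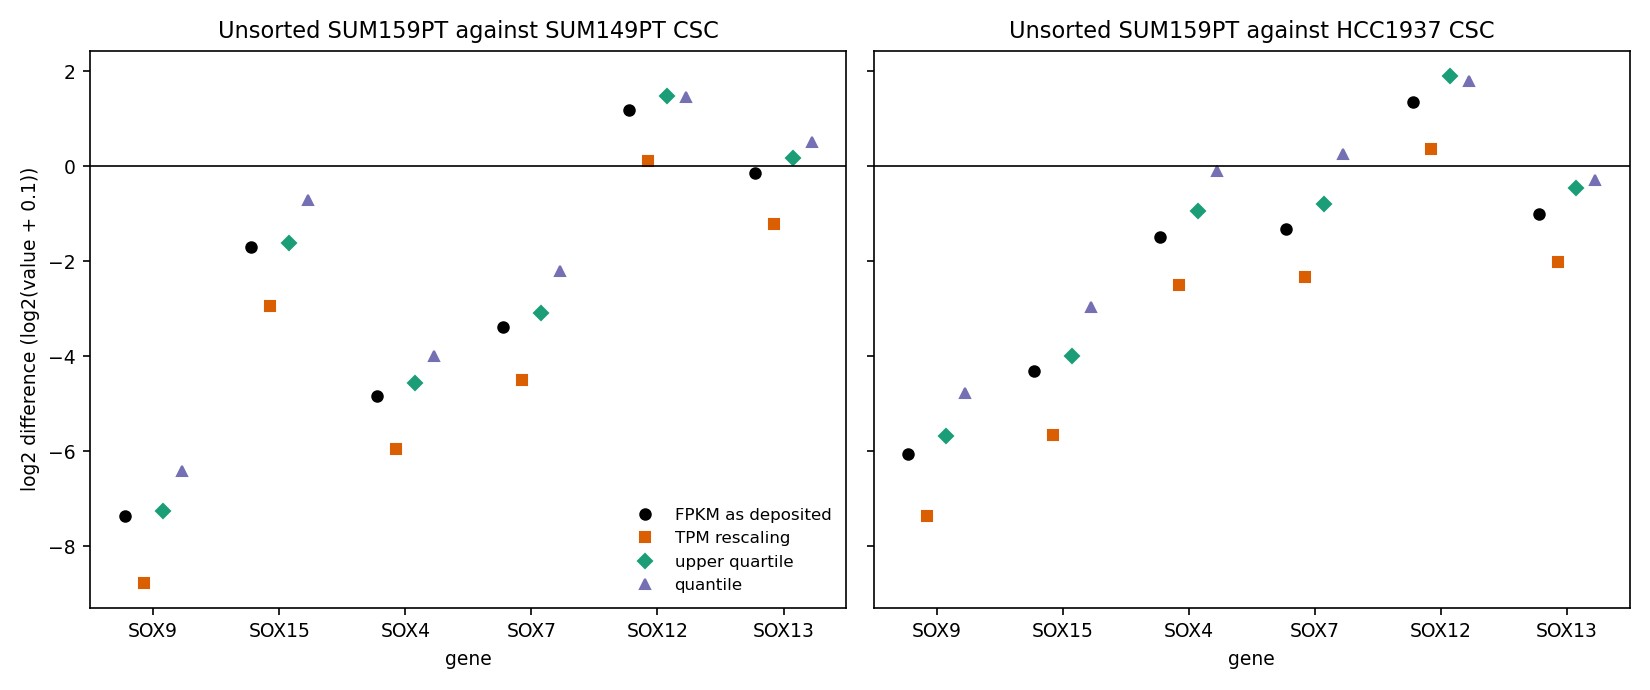
Log2 difference (y axis, log2(value + 0.1)) of unsorted SUM159PT against SUM149PT CSC and against HCC1937 CSC for 6 SOX genes, 3 libraries a group, with the FPKM as deposited and under 3 other scalings. SOX9 is lower under every scaling, and SOX12 is called higher under all but TPM rescaling (0.10 and 0.36), while SOX7 against HCC1937 CSC (-1.32 as deposited, 0.26 after quantile normalization) and SOX13 against SUM149PT CSC (-0.13 and 0.52) change sign.

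Across the 15 libraries SOX genes can be compared by the shape of their levels. Pearson r of log2(FPKM + 0.1) was 0.98 between SOX4 and SOX7, 0.86 between SOX4 and SOX9, 0.82 between SOX7 and SOX9, 0.79 between SOX13 and SOX15 and 0.78 between SOX9 and SOX15. SOX12 ran against SOX15 (r -0.94) and SOX9 (r -0.91). These values are a description: the 15 points are 5 groups of 3, so each r mostly reflects 5 group levels, and the libraries share the scale differences given above.

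The genes most like each member, among 12163 genes averaging 1 FPKM or more over the libraries, were found by the same measure over the same 15 libraries. SOX9 was nearest to TBC1D1, DSE and CSRNP2 (r 0.997, 0.996 and 0.996). SOX15 was nearest to ARHGEF37 (0.993), GRHL2 (0.992), an epithelial transcription factor of the list above, and MARVELD3 (0.991), a protein of tight junctions; GRHL2 had means of 0.225, 5.99, 1.25, 7.37 and 0.00582 FPKM in SUM149PT CSC, SUM149PT non-CSC, HCC1937 CSC, HCC1937 non-CSC and SUM159PT. SOX4 was nearest to RNF19B, KIF21B and UBE2D1 (0.993, 0.991 and 0.989), and SOX7 to CD59, SMAD4 and RHOQ (0.994, 0.992 and 0.992). SOX12 was nearest to STEAP3, ABCA3 and SF3A1 (0.980, 0.979 and 0.978), and SOX13 to ABCC5, DGCR8 and TMEM139 (0.994, 0.990 and 0.989).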

How the data were processed

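RNA of 15 libraries was captured with oligo(dT) beads and sequenced by the study. The deposited table holds FPKM made by the authors; their processing notes name Bowtie2 and the build GRCh38, and the quantifier, the annotation and the use of strand are not given in the sources used here. Values are fractional with no common step, so no read counts were recovered and no interval from depth can be given.

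Here log2(FPKM + 0.1) was tested with limma 3.58.1 in R 4.3.3 (lmFit and eBayes, Benjamini-Hochberg adjusted p over all genes averaging 0.1 FPKM or more across the libraries fitted), since the study compared fractions with limma. Log2 differences understate changes of low genes. Each sorted line was fitted on its 6 libraries, the interaction on 12, and contrasts between lines in 1 fit of 5 group means over 15. Scripts were tested on simulated data. With 3 against 3 the smallest exact two-sided permutation p is 0.10, so single genes were not permuted. Gene positions are from GENCODE release 29 and promoters from RefSeq (GRCh38.p14).

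All 10 genes are described; of every list up to 4 called genes with the largest non-overlapping differences and the most abundant gene were tabulated, and the text names some of them as examples. The result of 1 listed gene is not reported here. Members and lists were chosen with earlier results of these data known. Alternatives varied the pseudocount, the filter on low values, the scaling, limma's prior, the replicate block, the libraries fitted and each library in turn.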

Additional observations from a re-analysis of the deposited data

Results flagged for a closer look

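For 3 SOX genes the difference between CSC and non-CSC was unequal in the 2 sorted lines by the interaction test of limma across 12 sorted libraries. SOX15 was lower in CSC by more in SUM149PT, with a difference of effects of -2.41 (log2, adjusted p 2.72e-05). SOX9 also fell further in SUM149PT, with a difference of -0.81 (adjusted p 9.78e-06). SOX4 fell further in HCC1937, with a difference of 0.69 (adjusted p 0.000185). Without the log2 limit 61.1% of all genes tested passed this test, and of the 3 genes SOX15 alone also passed the log2 limit of 1. In each line and gene, all 3 CSC libraries lay below all 3 non-CSC libraries. The share of all genes without such overlap was not worked out. By limma, 74.8% of all genes in SUM149PT and 25.6% in HCC1937 passed an adjusted p of 0.05 without the log2 limit.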

How the results depend on the processing

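Of 767 alternative values of the 46 log2 differences of SOX genes, 737 kept their direction and whether they were called, 16 lost a call, 4 gained one and 10 turned sign. Of those with the call unchanged, 6 values, in 5 of the differences, crossed an adjusted p of 0.05. SOX8, listed at 0 in SUM149PT and SUM159PT, is left out where it has no direction. It is included where HCC1937 is set against another line, where the filter fixed its direction. The filter also fixed the direction of SOX9 and SOX15 in the comparisons with SUM159PT. A kept direction in these differences is no support. SOX members called moved by more than 1.5 times as follows. Without the log2 limit 6 instead of 2 were called in SUM149PT, 4 instead of 2 in HCC1937 and 3 instead of 1 for the interaction, by construction. With SOX8, SOX9 and SOX15 counted, SUM159PT had 7 calls against HCC1937 CSC. It had 4 instead with a pseudocount of 1, with upper quartile scaling and after quantile normalization. The cause was not tested.

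Signs turned as follows. SOX7 in SUM159PT against HCC1937 CSC was 0.26 after quantile normalization. SOX8 in HCC1937 was 0.0417 with TPM rescaling and 0.0757 after quantile normalization, and between -0.28 and 0.24 when each library was left out. The SOX12 interaction was -7.94e-05 with TPM rescaling, and SOX12 in HCC1937 non-CSC against SUM149PT non-CSC ranged from -0.16 to 0.0249 when each library was left out. SOX13 in SUM159PT against SUM149PT CSC was 0.17 with upper quartile scaling and 0.52 after quantile normalization. SOX15 in HCC1937 non-CSC against SUM149PT non-CSC was -0.0330 with upper quartile scaling. The causes were not tested. When each library was left out, SOX genes called stayed at 2 in SUM149PT and 1 for the interaction. They ranged from 2 to 3 in HCC1937, from 3 to 4 for the non-CSC fractions and from 6 to 7 for SUM159PT against HCC1937 CSC. They stayed at 5 in the other 2 comparisons. These counts include SOX8, and also SOX9 and SOX15 where SUM159PT is compared.

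The replicate numbers do not pair the samples: deviations of libraries with the same number correlated at 0.136, 0.0287 and 0.120 in SUM149PT and at -0.158, -0.0504 and -0.0355 in HCC1937. With the replicate block, 2 SOX genes were called in SUM149PT, 2 in HCC1937, 1 for the interaction and 5, 4, 5 and 7 between lines. These are the same counts as without it. The counts between lines include SOX8 where HCC1937 is compared, and SOX9 and SOX15 where SUM159PT is. Within the study's limits the replicate block left 0 genes of all tested in SUM149PT instead of 3292, with adjusted p of 0.000374 for SOX9 and 0.000424 for SOX15; without an expression minimum 876 genes remained. For 66 log2 differences of genes of other lists, each of 1 gene in 1 line, 991 alternative values kept direction and call and 49 lost the call. This total includes genes under a mean of 0.1 FPKM in 1 of the fractions, such as MIA, NANOG and SOX18 in SUM149PT. Their direction was fixed by the filter, so its being kept is no support. The depth of the libraries is unknown, which limits what values near 0 can show.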

Other observations

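Markers of mammary cell types also separated the fractions; genes under a mean of 0.1 FPKM in 1 of the fractions are not counted. Of all genes tested, 12.8% were called higher and 22.1% lower in SUM149PT CSC, and 2.71% and 6.0% in HCC1937 CSC. Of 6 luminal progenitor genes, 3 were tested in SUM149PT, where SLPI (39.8 ± 0.590 against 1108 ± 160 FPKM, CSC against non-CSC, SD, n = 3) and ALDH1A3 (27.7 ± 1.54 against 294 ± 17.6 FPKM) were called lower and LTF higher, and 2 of 4 tested were called lower in HCC1937, SLPI and ELF5; the LTF and ELF5 calls were lost with a pseudocount of 1. Of 7 mature luminal genes, 2 were called lower among 4 counted in SUM149PT. In HCC1937, 3 among 4 were called lower, of which the ESR1 call was lost with a pseudocount of 1 (log2 difference -0.94). GATA3, a luminal factor and the most abundant of them, was at 2.44 ± 0.122 against 9.35 ± 0.592 FPKM in SUM149PT and at 4.796 ± 1.03 against 15.5 ± 0.405 FPKM in HCC1937. Of 9 basal or myoepithelial genes, 5 were called higher and 2 lower in SUM149PT CSC, and 1 higher and 2 lower in HCC1937 CSC, with 8 tested in each. KRT5, a basal keratin, was lower in CSC of both lines, at 5.64 ± 0.373 against 141 ± 3.55 FPKM and at 12.9 ± 0.666 against 32.4 ± 0.896 FPKM, while TP63, a basal transcription factor, was higher in SUM149PT CSC (11.5 ± 0.719 against 2.37 ± 0.383 FPKM) and lower in HCC1937 CSC (3.22 ± 0.181 against 5.71 ± 0.197 FPKM, log2 difference -0.81, adjusted p 0.0011), the latter under the log2 limit of 1.

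Markers of cells outside the epithelium were mostly low. The 8 endothelial genes summed to 0.186, 1.73, 0.841, 0.941 and 0.311 FPKM in SUM149PT CSC, SUM149PT non-CSC, HCC1937 CSC, HCC1937 non-CSC and SUM159PT; PECAM1 was the 1 gene counted in SUM149PT, called lower in CSC but not with a pseudocount of 1 or after quantile normalization, and was not called in HCC1937. The 5 immune genes were nearly all CD68, a lysosomal protein, at 16.2 FPKM in SUM149PT CSC, 48.3 in SUM149PT non-CSC, 42.3 and 39.99 in HCC1937 CSC and non-CSC and 31.9 in SUM159PT, with CD3E listed at 0 in all 5 groups; CD68 was called lower in SUM149PT CSC. Of 5 fibroblast genes, 2 were called higher and 1 lower among 4 tested in SUM149PT CSC, led by COL1A1 (216 ± 2.81 against 49.0 ± 2.90 FPKM), and 1 of 2 counted, COL1A2, was called higher in HCC1937 CSC, a call lost with a pseudocount of 1 (0.60). The part of these markers in the SOX values was not tested.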
